A study of Homo sapiens with 4 samples.

Results

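The 34 genes described here encode chromatin-modifying proteins: Polycomb repressive complex 2 (PRC2), the MLL and SET1 complexes that methylate histone H3 at lysine 4 (the COMPASS family), the demethylases of histone H3 lysine 27, the lysine 9 methyltransferase SETDB1, and the enzymes that write, copy and remove DNA methylation. They were chosen by gene symbol, as the complexes that the long noncoding RNA FENDRR is reported to bind together with the DNA methylation enzymes, and all 34 were found among the 58174 genes of the table. The samples were cultures of LM3, a hepatocellular carcinoma cell line, and RBE, an intrahepatic cholangiocarcinoma cell line. Each line gave 1 library 48 h after lipofection with a small interfering RNA against FENDRR (si-FENDRR) and 1 library after a negative control small interfering RNA (si-NC), which makes 4 messenger RNA libraries. No untransfected culture was analysed here, so both arms of each line carry a lipofected RNA, and each line stands for its cancer type alone. Values are FPKM, fragments per kilobase of transcript, scaled to the number of mapped fragments, so levels can be set side by side between genes.

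PRC2 places methyl groups on lysine 27 of histone H3 and is known for keeping developmental genes off, while the COMPASS family methylates lysine 4 at promoters and enhancers and is known for keeping genes active. DNA methylation is set by DNMT3A and DNMT3B, copied at replication by DNMT1 with UHRF1, and removed through oxidation by the TET enzymes. FENDRR was described in mouse embryos as an RNA that binds both PRC2 and the MLL complexes, and several of these regulators are mutated or highly expressed in liver and bile duct cancers. The design asks whether the messenger RNA of this machinery differed with si-FENDRR, and it also sets the machinery of a hepatocellular line beside that of a biliary line.

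FENDRR itself was listed at 0 FPKM in all 4 libraries, so the knockdown could not be checked from these files and "si-FENDRR" below means the library with that label. Summed FPKM ran from 484157 to 508418 per library, and 13437 to 13682 genes per library reached 1 FPKM. Total read counts are not given, so the depth behind each value is unknown, and 1 library per line and transfection leaves no replicate culture. The labels were set against marker genes. The hepatocyte gene ALB was at 35.7 (si-FENDRR) and 33.3 FPKM (si-NC) in LM3, against 0.251 (si-FENDRR) and 0.27 FPKM (si-NC) in the RBE libraries. Of 8 tested hepatocyte markers, 4 were higher in LM3 (ALB, AFP, TF and HNF4A) and 3 in RBE (TTR, SERPINA1 and AMBP). Genes were tested if they had at least 1 FPKM in any library. ALB and AFP reached that level in LM3 alone and TTR and SERPINA1 in RBE alone, so these had to differ. APOA1 and APOA2 stayed at or below 0.103 FPKM in all 4 libraries, and the summed level of the hepatocyte list was 116 (si-FENDRR) and 109 FPKM (si-NC) in LM3, against 138 (si-FENDRR) and 175 FPKM (si-NC) in RBE. Of 7 tested cholangiocyte markers, 6 were higher in RBE and 1, SPP1, was higher in LM3, while CFTR was at or below 0.023 FPKM everywhere. Some of these 6 reached 1 FPKM in RBE alone, so they too had to differ. Among leukocyte markers, PTPRC, CD3E and CD14 were at or below 0.196 FPKM in all 4 libraries. LYZ was at 0.128 (si-FENDRR) and 0 FPKM (si-NC) in LM3, against 12.7 (si-FENDRR) and 12.5 FPKM (si-NC) in RBE. It was tested through its RBE libraries alone and so had to differ, and its values are given as a description.

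Across the 34 genes the levels ran from 0.196 FPKM (TET1, RBE with si-NC) to 90.2 FPKM (PHF19, RBE with si-FENDRR). The median over genes of the mean level was 8.51 FPKM. For comparison, the median gene with at least 1 FPKM in any library stood at 6.42 FPKM (LM3, si-FENDRR), 6.29 FPKM (LM3, si-NC), 5.51 FPKM (RBE, si-FENDRR) and 5.35 FPKM (RBE, si-NC). An average over 20 FPKM was reached by 9 of the 34 (RBBP4, RBBP7, PHF1, PHF19, WDR5, DPY30, MEN1, SETDB1 and DNMT1), and the 3 TET genes averaged under 2 FPKM. Of the 34, 32 reached 1 FPKM in at least 1 library and were tested; TET1 and TET2 did not. DNMT3B passed that filter through its LM3 libraries alone, so it had to differ between the lines.

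**Figure D1:**
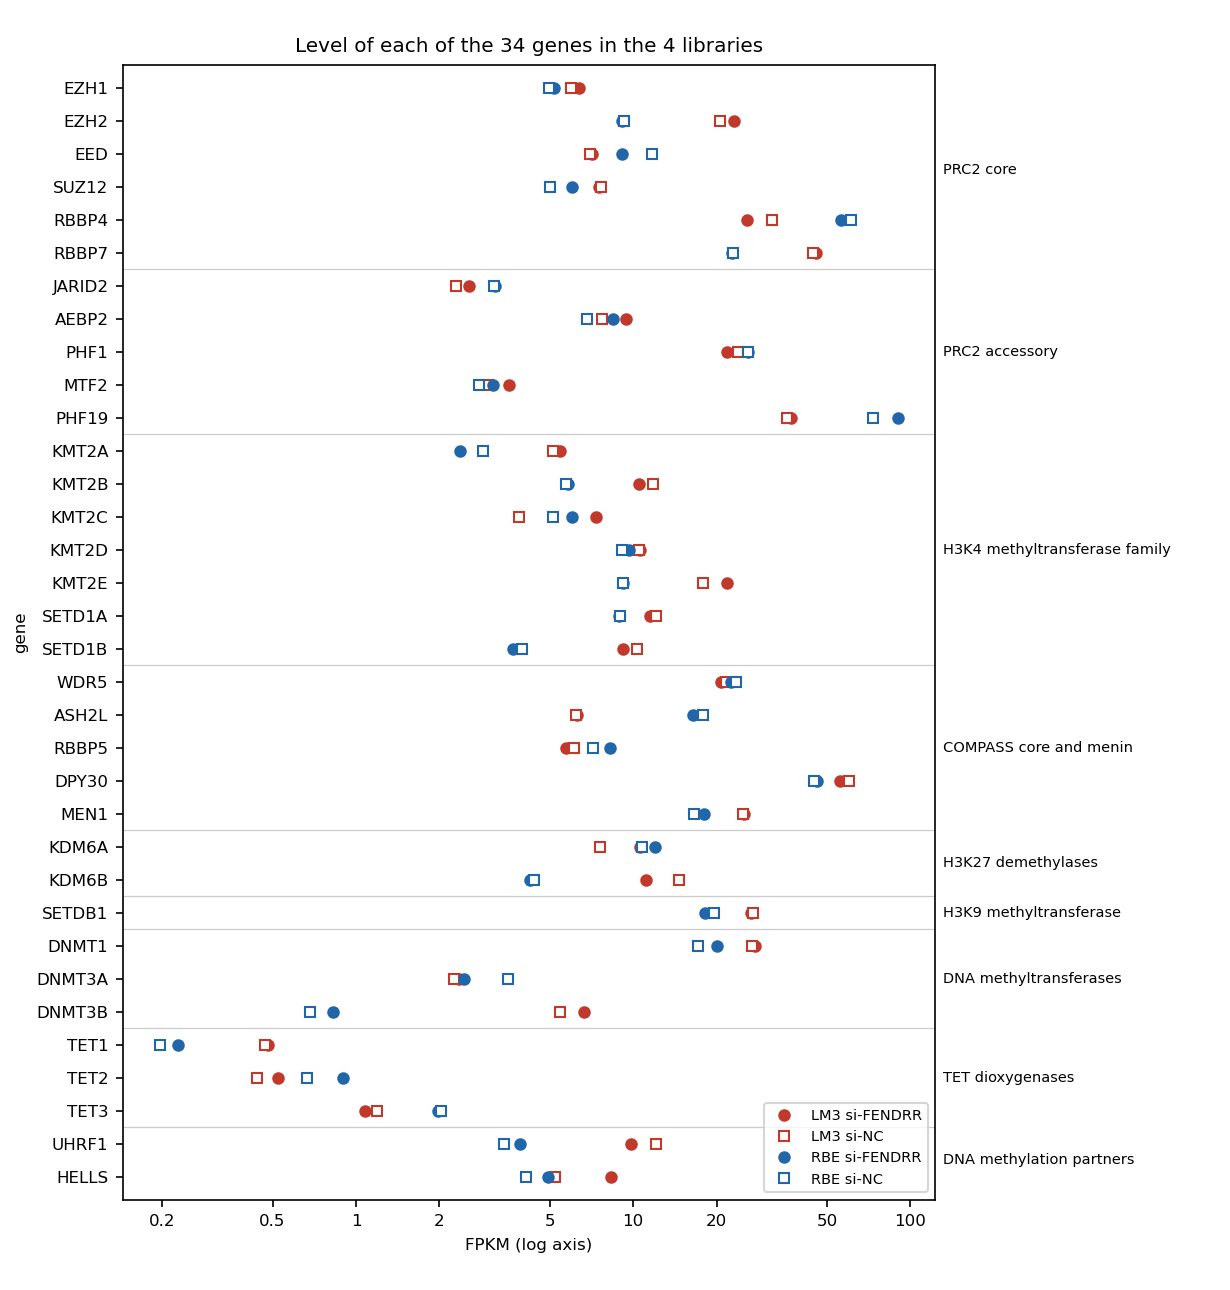
Level of each of the 34 genes (rows, by complex) in FPKM on a log axis; red symbols are LM3, blue symbols RBE, filled circles si-FENDRR and open squares si-NC. Within most rows the circle and the square of a line lie close together, and the wide gaps lie between colours, as in DNMT3B (6.66 and 5.44 FPKM in LM3 against 0.826 and 0.682 FPKM in RBE).

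These genes differed more between the cell lines than between the transfections, as did tested genes in general. The difference between the lines was tested with limma on log2(FPKM + 1) over all 15930 genes with at least 1 FPKM in any library. Transfection was a term of the fit, and Benjamini-Hochberg adjustment ran over all of these genes. Transfection sets apart both libraries of a line. The spread of a gene is thus how unlike its LM3 minus RBE difference was under si-FENDRR and si-NC. The p-values weigh the size of the difference against that spread, moderated toward the spread of the other tested genes. They rest on 1 residual degree of freedom and 2.89 degrees of freedom from that moderation. At an adjusted p under 0.05, 16 of the 32 tested genes (50%) were called, beside 58.7% of all tested genes. Of these, 12 (37.5%) were higher in LM3, beside 32.3% of all tested genes, and 4 (12.5%) were higher in RBE, beside 26.4% of all tested genes. The 12 include DNMT3B, whose call the filter had set; where every library had to reach 1 FPKM, 15 of 31 were called, 11 of them higher in LM3. The libraries of the lines did not overlap in 29 of the 32 (90.6%), beside 81.7% of all tested genes; AEBP2, MTF2 and KMT2C were the exceptions. The median size of the difference was 0.49 on the log2 scale over the 32 genes and 0.65 over all tested genes. On this scale the change of genes near or under 1 FPKM is understated. A level in a culture is an average, so a larger share of cells with the transcript and more transcript per cell cannot be told apart.

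**Figure D2:**
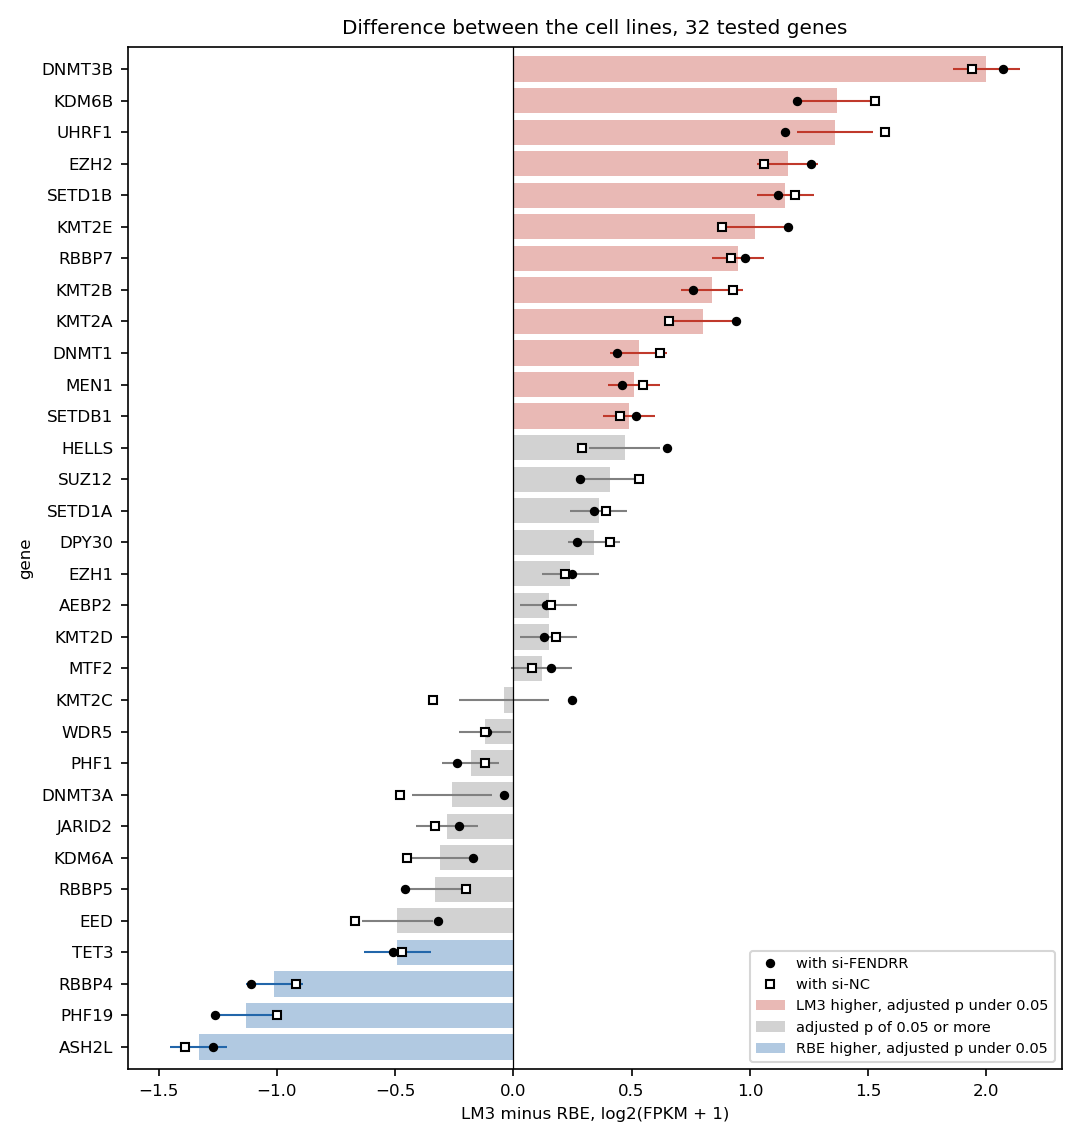
LM3 minus RBE difference of the 32 tested genes on the log2(FPKM + 1) scale (bars, with the limma standard error as a line); filled circles are the difference with si-FENDRR and open squares that with si-NC, red and blue bars are called at an adjusted p under 0.05 and grey bars are not. The bars run from 2.0 for DNMT3B, which the filter obliged to differ, to -1.33 for ASH2L, and only in KMT2C do the circle (0.25) and the square (-0.34) lie on opposite sides of 0.

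Promoters of 5 of these genes are shown because they hold, close to the start site, a motif that E2F factors bind at genes of DNA replication. The motifs searched were TTTCCCGC, TTTGGCGC, TTTGCCGC and TTTCGCGC on both strands, in the 250 bases before and 50 bases after the start site, in RefSeq promoters of GRCh38.p14. Of 31 genes with an entry, 9 held at least 1 match (29%), against 3.99% of 27305 genes with an entry and 6.49% of 10330 tested genes with an entry. A gene counted if any of its RefSeq windows held a match. Neither the number of windows per gene nor their content of CG pairs was matched between these sets, so the shares are a description. The 9 were EZH1, EZH2, SUZ12, AEBP2, MTF2, PHF19, DNMT1, UHRF1 and HELLS; EZH2, DNMT1 and UHRF1 were called higher in LM3, PHF19 was called higher in RBE and the other 5 were not called. The windows printed run from 100 bases before to 50 bases after the start site, 5′ to 3′ along the gene, with the match in capitals, and lie at chr7:148884242-148884391 on the minus strand for EZH2, chr1:93079183-93079332 on the plus strand for MTF2, chr19:10194904-10195053 on the minus strand for DNMT1, chr19:4909401-4909550 on the plus strand for UHRF1 and chr10:94545688-94545837 on the plus strand for HELLS. In all 5 genes the RefSeq start site lies inside the span that the table gives for the gene.
EZH2: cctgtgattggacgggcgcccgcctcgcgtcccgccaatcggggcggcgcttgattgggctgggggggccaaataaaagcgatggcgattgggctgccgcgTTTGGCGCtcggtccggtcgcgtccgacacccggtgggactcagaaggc
MTF2: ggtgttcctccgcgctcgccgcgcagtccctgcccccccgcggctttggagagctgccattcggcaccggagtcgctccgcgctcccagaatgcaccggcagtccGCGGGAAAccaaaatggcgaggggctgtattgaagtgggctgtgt
DNMT1: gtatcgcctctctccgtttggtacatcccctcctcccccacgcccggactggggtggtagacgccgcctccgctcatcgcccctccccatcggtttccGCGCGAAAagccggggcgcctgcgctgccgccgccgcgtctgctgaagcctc
UHRF1: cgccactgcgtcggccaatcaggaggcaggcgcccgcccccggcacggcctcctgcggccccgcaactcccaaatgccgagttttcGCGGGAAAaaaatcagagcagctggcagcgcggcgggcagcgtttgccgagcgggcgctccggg
HELLS: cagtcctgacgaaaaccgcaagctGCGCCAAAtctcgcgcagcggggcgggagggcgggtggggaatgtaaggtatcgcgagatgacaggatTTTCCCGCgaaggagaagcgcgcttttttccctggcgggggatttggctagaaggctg
In EZH2 the match begins 1 base past the start base and in MTF2 it begins 5 bases past it. In DNMT1 it begins 2 bases before the start base, in UHRF1 14 bases before it, and HELLS has matches that begin 76 and 8 bases before it. A match is a description of these letters, and binding was not measured.

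In the PRC2 core, EZH2 and RBBP7 were higher in LM3 and RBBP4 was higher in RBE. EZH2, the main catalytic subunit in dividing cells (chr7:148807383-148884321, minus strand), was at 23.2 (si-FENDRR) and 20.5 FPKM (si-NC) in LM3, against 9.09 (si-FENDRR) and 9.28 FPKM (si-NC) in RBE. Both LM3 libraries lay above both RBE libraries, a difference of 1.16 ± 0.13 on the log2 scale (SE, n = 2 libraries per line; adjusted p = 0.00455 by limma). EZH1, the paralog that predominates in resting cells, was at 6.36 (si-FENDRR) and 5.97 FPKM (si-NC) in LM3, against 5.17 (si-FENDRR) and 4.98 FPKM (si-NC) in RBE, and was not called (0.24 ± 0.12, adjusted p = 0.167). The ratio of EZH2 to EZH1 was therefore 3.65 (si-FENDRR) and 3.43 (si-NC) in the LM3 libraries, against 1.76 (si-FENDRR) and 1.86 (si-NC) in the RBE libraries.

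RBBP7 and RBBP4 encode closely related histone-binding subunits that PRC2 shares with other chromatin complexes, and they differed in opposite directions. RBBP7 was at 45.8 (si-FENDRR) and 44.4 FPKM (si-NC) in LM3, against 22.8 (si-FENDRR) and 23.0 FPKM (si-NC) in RBE (0.95 ± 0.11, n = 2 libraries per line, adjusted p = 0.00525 by limma). RBBP4 was at 25.7 (si-FENDRR) and 31.8 FPKM (si-NC) in LM3, against 56.4 (si-FENDRR) and 61.1 FPKM (si-NC) in RBE (-1.01 ± 0.12, adjusted p = 0.00524). RBBP7 was thus the most abundant core transcript in LM3 and RBBP4 in RBE, with a ratio of RBBP7 to RBBP4 of 1.78 (si-FENDRR) and 1.4 (si-NC) in the LM3 libraries and 0.404 (si-FENDRR) and 0.376 (si-NC) in the RBE libraries. RBBP4 shares 16.1% of its transcript with the pseudogene RBBP4P1 (at or below 0.426 FPKM) and 18.0% of its exonic bases with SYNC on the other strand (at or below 0.356 FPKM).

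EED, which reads lysine 27 methylation, and SUZ12, the scaffold, were not called. EED was at 7.13 (si-FENDRR) and 6.99 FPKM (si-NC) in LM3, against 9.14 (si-FENDRR) and 11.7 FPKM (si-NC) in RBE (-0.49 ± 0.15, n = 2 libraries per line, adjusted p = 0.0509 by limma). SUZ12 was at 7.52 (si-FENDRR) and 7.65 FPKM (si-NC) in LM3, against 6.02 (si-FENDRR) and 4.99 FPKM (si-NC) in RBE (0.41 ± 0.14, adjusted p = 0.0672). The lines did not overlap in either gene, and the ratio of SUZ12 to EED was 1.06 (si-FENDRR) and 1.1 (si-NC) in LM3, against 0.658 (si-FENDRR) and 0.427 (si-NC) in RBE. The value of SUZ12 is uncertain, since 22.8% of its transcript is near-identical to the pseudogene SUZ12P1, with 5.34 (si-FENDRR) and 5.30 FPKM (si-NC) in the LM3 libraries and 6.33 (si-FENDRR) and 7.2 FPKM (si-NC) in the RBE libraries. Within LM3 the core followed the order RBBP7, RBBP4, EZH2, SUZ12, EED and EZH1 with no overlap between neighbours; in RBE it followed RBBP4, RBBP7, EED, EZH2, SUZ12 and EZH1, where EED overlapped EZH2 and SUZ12 overlapped EZH1.

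Among the accessory subunits PHF19 was the one that differed. PHF19, PHF1 and MTF2 are the Polycomb-like proteins that help PRC2 bind chromatin, while JARID2 and AEBP2 mark a second form of the complex. PHF19 (chr9:120855652-120894896, minus strand) was at 37.0 (si-FENDRR) and 36.0 FPKM (si-NC) in LM3, against 90.2 (si-FENDRR) and 73.1 FPKM (si-NC) in RBE (-1.13 ± 0.12, n = 2 libraries per line, adjusted p = 0.00472 by limma). Both RBE libraries lay above both LM3 libraries, and those of RBE differed by more than those of LM3. PHF1 was at 21.8 (si-FENDRR) and 23.8 FPKM (si-NC) in LM3 and at 25.9 FPKM in both RBE libraries, and MTF2 ranged from 2.78 to 3.57 FPKM with overlapping lines. JARID2 ranged from 2.3 to 3.16 FPKM and AEBP2 from 6.8 to 9.43 FPKM. Adjusted p-values of these 4 genes ran from 0.145 to 0.474. The Polycomb-like genes kept the order PHF19, PHF1 and MTF2 in both lines, and the ratio of PHF19 to PHF1 was 1.7 (si-FENDRR) and 1.51 (si-NC) in the LM3 libraries, against 3.48 (si-FENDRR) and 2.83 (si-NC) in the RBE libraries.

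Of the 7 genes of the lysine 4 methyltransferase family, 4 were called higher in LM3, beside 32.3% of all tested genes. None was called higher in RBE, beside 26.4% of all tested genes. SETD1B, one of the paired SET1 enzymes that deposit most trimethylation of lysine 4, was at 9.17 (si-FENDRR) and 10.3 FPKM (si-NC) in LM3, against 3.68 (si-FENDRR) and 3.98 FPKM (si-NC) in RBE (1.15 ± 0.12, n = 2 libraries per line, adjusted p = 0.00445 by limma). Its paralog SETD1A was at 11.5 (si-FENDRR) and 12.1 FPKM (si-NC) in LM3, against 8.9 (si-FENDRR) and 8.96 FPKM (si-NC) in RBE, and was not called (0.36 ± 0.12, adjusted p = 0.0611). The ratio of SETD1B to SETD1A was 0.796 (si-FENDRR) and 0.856 (si-NC) in the LM3 libraries and 0.414 (si-FENDRR) and 0.444 (si-NC) in the RBE libraries.

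KMT2A (MLL1) and KMT2B (MLL2), the menin-bound enzymes that act at developmental and HOX gene promoters, both stood higher in LM3. KMT2A was at 5.46 (si-FENDRR) and 5.15 FPKM (si-NC) in LM3, against 2.37 (si-FENDRR) and 2.88 FPKM (si-NC) in RBE (0.80 ± 0.14, n = 2 libraries per line, adjusted p = 0.0144 by limma). KMT2B was at 10.5 (si-FENDRR) and 11.8 FPKM (si-NC) in LM3, against 5.81 (si-FENDRR) and 5.74 FPKM (si-NC) in RBE (0.84 ± 0.13, adjusted p = 0.00932). KMT2E (MLL5), a family member that reads lysine 4 methylation and has no settled methyltransferase activity, was at 21.8 (si-FENDRR) and 17.8 FPKM (si-NC) in LM3, against 9.21 (si-FENDRR) and 9.2 FPKM (si-NC) in RBE (1.02 ± 0.13, adjusted p = 0.00696). In all 3 genes both LM3 libraries lay above both RBE libraries.

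KMT2C (MLL3) and KMT2D (MLL4), the enhancer enzymes, were not called between the lines. KMT2D was at 10.6 (si-FENDRR) and 10.5 FPKM (si-NC) in LM3, against 9.65 (si-FENDRR) and 9.14 FPKM (si-NC) in RBE (0.15 ± 0.12, n = 2 libraries per line, adjusted p = 0.318 by limma). KMT2C was at 7.34 (si-FENDRR) and 3.86 FPKM (si-NC) in LM3, against 6.0 (si-FENDRR) and 5.15 FPKM (si-NC) in RBE (-0.04 ± 0.19, adjusted p = 0.86). Its LM3 libraries enclosed its RBE libraries. KMT2C (chr7:152134922-152436005, minus strand) shares 15.4% of its transcript with the near-identical BAGE2, and BAGE2 and 7 other such copies were listed at 0 FPKM in all 4 libraries.

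WDR5, RBBP5, ASH2L and DPY30 form the module that every COMPASS complex needs for activity, and within it only ASH2L was called. ASH2L was at 6.26 (si-FENDRR) and 6.21 FPKM (si-NC) in LM3, against 16.5 (si-FENDRR) and 17.9 FPKM (si-NC) in RBE (-1.33 ± 0.12, n = 2 libraries per line, adjusted p = 0.00329 by limma). WDR5 was at 20.7 (si-FENDRR) and 21.6 FPKM (si-NC) in LM3, against 22.5 (si-FENDRR) and 23.5 FPKM (si-NC) in RBE, and was not called (-0.12 ± 0.11, adjusted p = 0.416). The ratio of ASH2L to WDR5 was 0.303 (si-FENDRR) and 0.288 (si-NC) in the LM3 libraries and 0.733 (si-FENDRR) and 0.76 (si-NC) in the RBE libraries. RBBP5 ranged from 5.7 to 8.22 FPKM (adjusted p = 0.111) and DPY30 from 45.0 to 60.0 FPKM (adjusted p = 0.0628), neither of them called. DPY30 shares 50.5% of its exonic bases with MEMO1 on the same strand, which was at 22.1 to 25.0 FPKM, so reads of the pair could be split between them. MEN1, which encodes menin, the adaptor of KMT2A and KMT2B, was at 25.2 (si-FENDRR) and 24.9 FPKM (si-NC) in LM3, against 18.0 (si-FENDRR) and 16.6 FPKM (si-NC) in RBE, and was higher in LM3 (0.51 ± 0.11, adjusted p = 0.0249).

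The lysine 27 demethylases, which remove the PRC2 mark, were split. KDM6B (JMJD3, chr17:7839904-7854796, plus strand) was at 11.1 (si-FENDRR) and 14.6 FPKM (si-NC) in LM3, against 4.23 (si-FENDRR) and 4.37 FPKM (si-NC) in RBE (1.37 ± 0.15, n = 2 libraries per line, adjusted p = 0.00445 by limma). KDM6A (UTX), a subunit of the KMT2C and KMT2D complexes, was at 10.6 (si-FENDRR) and 7.61 FPKM (si-NC) in LM3, against 12.0 (si-FENDRR) and 10.8 FPKM (si-NC) in RBE, and was not called (-0.31 ± 0.14, adjusted p = 0.126). KDM6B exceeded KDM6A in both LM3 libraries and lay below it in both RBE libraries, with a ratio of 1.04 (si-FENDRR) and 1.91 (si-NC) in LM3 and 0.352 (si-FENDRR) and 0.406 (si-NC) in RBE. SETDB1, a lysine 9 methyltransferase that silences repeats, was at 26.6 (si-FENDRR) and 27.1 FPKM (si-NC) in LM3, against 18.2 (si-FENDRR) and 19.5 FPKM (si-NC) in RBE, and was higher in LM3 (adjusted p = 0.0269). Of the exonic bases of SETDB1, 13.4% are shared with the abundant CERS2 on the other strand, which was at 554 (si-FENDRR) and 290 FPKM (si-NC) in LM3 and at 174 (si-FENDRR) and 328 FPKM (si-NC) in RBE.

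Among the DNA methyltransferases, DNMT1 was higher in LM3, and DNMT3B reached 1 FPKM in LM3 alone. DNMT3B, a de novo enzyme of embryonic and cancer cells (chr20:32762385-32809356, plus strand), was at 6.66 (si-FENDRR) and 5.44 FPKM (si-NC) in LM3, against 0.826 (si-FENDRR) and 0.682 FPKM (si-NC) in RBE. The fitted difference was 2.0 ± 0.14 (SE, n = 2 libraries per line), given as a description since the filter obliged this gene to differ. DNMT3A, the other de novo enzyme, was at 2.35 (si-FENDRR) and 2.25 FPKM (si-NC) in LM3, against 2.45 (si-FENDRR) and 3.53 FPKM (si-NC) in RBE, and was not called (-0.26 ± 0.17, adjusted p = 0.257). DNMT3B was the more abundant de novo transcript in LM3 and DNMT3A in RBE, with a ratio of DNMT3B to DNMT3A of 2.83 (si-FENDRR) and 2.42 (si-NC) in the LM3 libraries, against 0.338 (si-FENDRR) and 0.193 (si-NC) in the RBE libraries. DNMT1, the maintenance enzyme, was the most abundant of the 3 in every library, at 27.6 (si-FENDRR) and 26.8 FPKM (si-NC) in LM3, against 20 (si-FENDRR) and 17.1 FPKM (si-NC) in RBE (0.53 ± 0.12, adjusted p = 0.0253).

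UHRF1, which brings DNMT1 to newly replicated DNA (chr19:4903080-4962154, plus strand), was at 9.85 (si-FENDRR) and 12.1 FPKM (si-NC) in LM3, against 3.9 (si-FENDRR) and 3.43 FPKM (si-NC) in RBE (1.36 ± 0.16, n = 2 libraries per line, adjusted p = 0.00556 by limma). Both LM3 libraries lay above both RBE libraries, and the ratio of UHRF1 to DNMT1 was 0.357 (si-FENDRR) and 0.452 (si-NC) in LM3 and 0.195 (si-FENDRR) and 0.2 (si-NC) in RBE. UHRF1 is uncertain in size, because 33.0% of its transcript is near-identical to the pseudogene AC112777.1, with 2.998 (si-FENDRR) and 1.93 FPKM (si-NC) in the LM3 libraries and 0.757 (si-FENDRR) and 0.431 FPKM (si-NC) in the RBE libraries. HELLS, a chromatin remodeller that DNA methylation of repeats depends on, was at 8.29 (si-FENDRR) and 5.23 FPKM (si-NC) in LM3, against 4.93 (si-FENDRR) and 4.09 FPKM (si-NC) in RBE, and was not called (0.47 ± 0.15, adjusted p = 0.061). EZH2, DNMT1, UHRF1 and HELLS are known to be expressed with replication, and genes of S phase are therefore given beside them. Of these, 12 of 23 tested genes were higher in LM3 and 3 in RBE, beside 32.3% and 26.4% of all tested genes. The summed level of the list was 639 (si-FENDRR) and 576 FPKM (si-NC) in the LM3 libraries and 497 (si-FENDRR) and 445 FPKM (si-NC) in the RBE libraries. The part of replication in these differences was not tested.

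The TET dioxygenases, which oxidise 5-methylcytosine, were the lowest group. TET3 was at 1.08 (si-FENDRR) and 1.19 FPKM (si-NC) in LM3, against 1.97 (si-FENDRR) and 2.02 FPKM (si-NC) in RBE, and was higher in RBE (-0.49 ± 0.14, n = 2 libraries per line, adjusted p = 0.0448 by limma), a call that was lost with a pseudocount of 5, with no filter on low values and with libraries scaled to the same total. TET1 was at 0.481 (si-FENDRR) and 0.47 FPKM (si-NC) in LM3, against 0.227 (si-FENDRR) and 0.196 FPKM (si-NC) in RBE. TET2 was at 0.522 (si-FENDRR) and 0.44 FPKM (si-NC) in LM3, against 0.896 (si-FENDRR) and 0.667 FPKM (si-NC) in RBE. The lines did not overlap in TET1 or TET2. With no filter on low values limma called neither, with a difference of 0.28 for TET1 (adjusted p = 0.133) and -0.26 for TET2 (adjusted p = 0.292). TET3 was the most abundant TET transcript in every library.

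**Figure D3:**
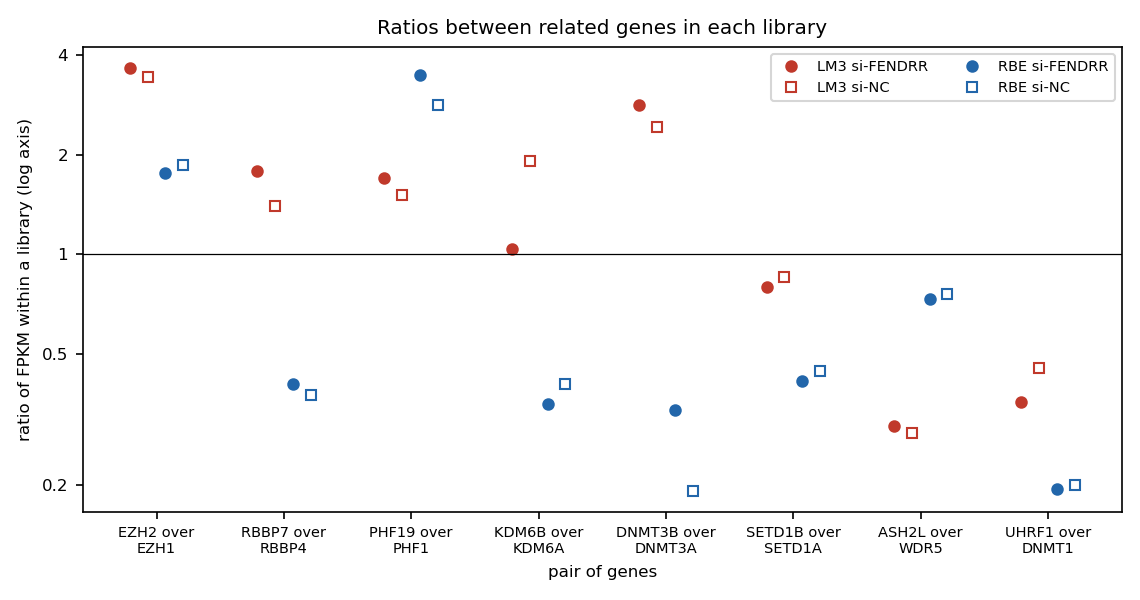
Ratio of FPKM between related genes within each library, on a log axis; red symbols are LM3, blue symbols RBE, filled circles si-FENDRR and open squares si-NC. Among the 8 pairs drawn, the colours fall on opposite sides of a ratio of 1 for RBBP7 over RBBP4 (1.78 and 1.4 in LM3, 0.404 and 0.376 in RBE), KDM6B over KDM6A and DNMT3B over DNMT3A.

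Between the transfections, none of these genes was called. In the limma fit over both lines, 0 of the 32 tested genes and 0% of all 15930 genes passed an adjusted p under 0.05. The smallest adjusted p of any gene was 0.473. Without adjustment, 657 genes had a p under 0.05, none of them among the 32, where the smallest was 0.0596 (HELLS). These p-values weigh the mean difference over both lines against how unlike the lines were, moderated toward the spread of the other tested genes. Adjusted p-values of the 32 genes ran from 0.959 to 0.995.

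Within each line, 1 library with si-FENDRR was set beside 1 with si-NC, without a test. At least a 2-fold difference in FPKM + 1 was seen in none of the 32 genes in LM3, beside 2.13% of all tested genes, and in none in RBE, beside 1.75%. At 1.5-fold it was seen in 1 gene in LM3 (3.12%), beside 7.97% of all tested genes, and in none in RBE, beside 6.27%. The median size of the difference was 0.09 on the log2 scale in LM3 and 0.11 in RBE, against 0.15 in LM3 and 0.14 in RBE over all tested genes.

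The 1 gene past 1.5-fold was KMT2C in LM3, at 7.34 (si-FENDRR) against 3.86 FPKM (si-NC), a difference of 0.78 on the log2(FPKM + 1) scale. In RBE it was at 6.0 (si-FENDRR) against 5.15 FPKM (si-NC) (0.18). Just inside that limit was HELLS, at 8.29 (si-FENDRR) against 5.23 FPKM (si-NC) in LM3 (0.58) and at 4.93 (si-FENDRR) against 4.09 FPKM (si-NC) in RBE (0.22). KDM6A was at 10.6 (si-FENDRR) against 7.61 FPKM (si-NC) in LM3 (0.43), while its paralog KDM6B was at 11.1 (si-FENDRR) against 14.6 FPKM (si-NC) (-0.37). The ratio of KDM6B to KDM6A in LM3 was 1.04 (si-FENDRR) and 1.91 (si-NC), while in RBE it was 0.352 (si-FENDRR) and 0.406 (si-NC). In RBE the greatest differences were in DNMT3A, at 2.45 (si-FENDRR) against 3.53 FPKM (si-NC) (-0.40), EED, at 9.14 (si-FENDRR) against 11.7 FPKM (si-NC) (-0.32), and PHF19, at 90.2 (si-FENDRR) against 73.1 FPKM (si-NC) (0.30). In LM3 the difference was 0.05 for DNMT3A, 0.02 for EED and 0.04 for PHF19, so the genes with the greatest differences in RBE were not those of LM3.

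By complex, the medians lay close to 0. Over the 6 PRC2 core genes the median was 0.03 in LM3 and -0.02 in RBE, over the 7 methyltransferase genes 0.02 in LM3 and 0.00 in RBE, and over WDR5, ASH2L, RBBP5, DPY30 and MEN1 -0.06 in LM3 and 0.03 in RBE. Over DNMT1, DNMT3A and DNMT3B it was 0.05 in LM3 and 0.12 in RBE. EZH2 itself differed by 0.17 in LM3 and -0.03 in RBE, where equal totals gave 0.01. The 5 accessory PRC2 genes had medians of 0.10 in LM3 and 0.12 in RBE, with AEBP2 at 9.43 (si-FENDRR) against 7.72 FPKM (si-NC) in LM3, and in RBE at 8.47 (si-FENDRR) against 6.8 FPKM (si-NC) (0.26 in LM3 and 0.28 in RBE). Of the 32 genes, 13 (40.6%) stood higher after si-FENDRR in LM3 and in RBE at any size, beside 26.9% of all tested genes, and 7 (21.9%) were lower in both, beside 21.8%. With median-of-ratios scaling the counts were 11 higher and 10 lower in both lines, beside 23.5% higher and 25.7% lower of all tested genes. These counts need no minimum size and hold many differences near 0.

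**Figure D4:**
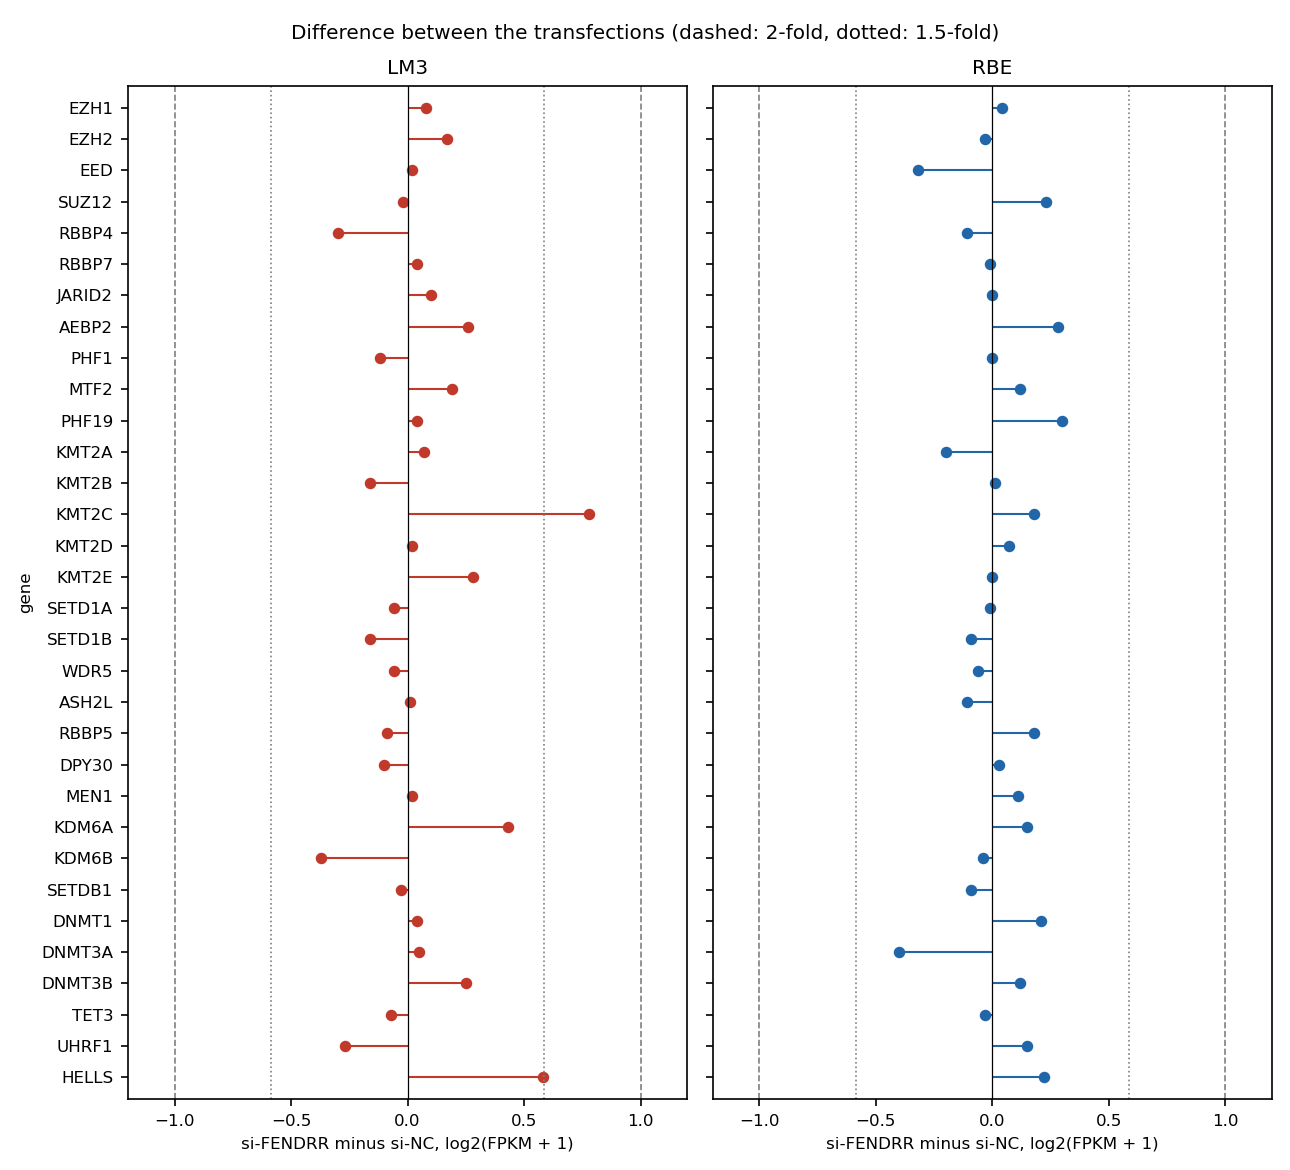
Difference between si-FENDRR and si-NC of the 32 tested genes on the log2(FPKM + 1) scale in LM3 (left, red) and RBE (right, blue); each point compares 1 library with 1 library, dashed lines mark 2-fold and dotted lines 1.5-fold. No point reaches the dashed lines, and KMT2C in LM3 (0.78) is the 1 point past the dotted lines.

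The surrounding chromatin machinery was described from 7 further gene lists, and no gene of any list was called between the transfections. For comparison with the line counts of each of the 7 lists, 32.3% of all tested genes were called higher in LM3 and 26.4% higher in RBE. Among PRC1 genes, which encode the complex that reads the PRC2 mark and ubiquitinates histone H2A, 5 of 22 were higher in LM3 and 5 in RBE, with a median LM3 minus RBE difference of -0.04 beside 0.09 over all tested genes. The chromodomain gene CBX2 was at 11.1 (si-FENDRR) and 11.2 FPKM (si-NC) in LM3 against 3.2 (si-FENDRR) and 3.6 FPKM (si-NC) in RBE, and BCORL1 was also higher in LM3 (1.13), while PCGF2, at 7.77 (si-FENDRR) and 8.16 FPKM (si-NC) in LM3 against 17.0 (si-FENDRR) and 23.3 FPKM (si-NC) in RBE, and PHC2 (-0.98) were higher in RBE. Of 6 other Polycomb accessory genes, 1 was higher in each line (median 0.09): BAP1, the H2A deubiquitinase, in LM3 (0.92) and its cofactor ASXL1 in RBE (-0.74). ASXL2 (0.54) and LCOR (-0.51) were not called. Of 10 other COMPASS subunit genes, 3 were higher in LM3, among them WDR82 (0.54), and 1 in RBE, PSIP1 (-0.54), with a median of 0.28. NCOA6 (0.52) and BOD1 (-0.26) were not called.

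Of the 5 lysine 4 demethylase genes, 2 were higher in LM3, KDM5C (1.16) and KDM1A (0.45), and 2 in RBE, KDM5B (-1.33) and KDM1B (-0.59), with a median of -0.13. Of 11 genes of lysine 9 methylation and heterochromatin, 5 were higher in LM3 and 2 in RBE, with a median of 0.14. The lysine 9 methyltransferase SUV39H1 was at 21.8 (si-FENDRR) and 20.1 FPKM (si-NC) in LM3 against 4.59 (si-FENDRR) and 3.82 FPKM (si-NC) in RBE. ATF7IP, the partner of SETDB1, was higher in LM3 (1.08). Of the HP1 genes, CBX1 (-0.76) and CBX5 (-0.60) were higher in RBE, while CBX3 (0.67) was higher in LM3. Of 12 readers and partners of DNA methylation, 4 were higher in LM3 and 1 in RBE, with a median of 0.16; ZBTB38 (1.58) and MBD4 (1.55) were higher in LM3, UHRF2 (-0.81) was higher in RBE and ZBTB4 (-0.59) was not called. Of the 23 S-phase genes, 12 were higher in LM3, led by MCM7 (1.49) and MCM2 (1.11), and 3 in RBE, among them MCM3 (-1.17) and GINS2 (-0.68), with a median of 0.50.

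**Figure D5:**
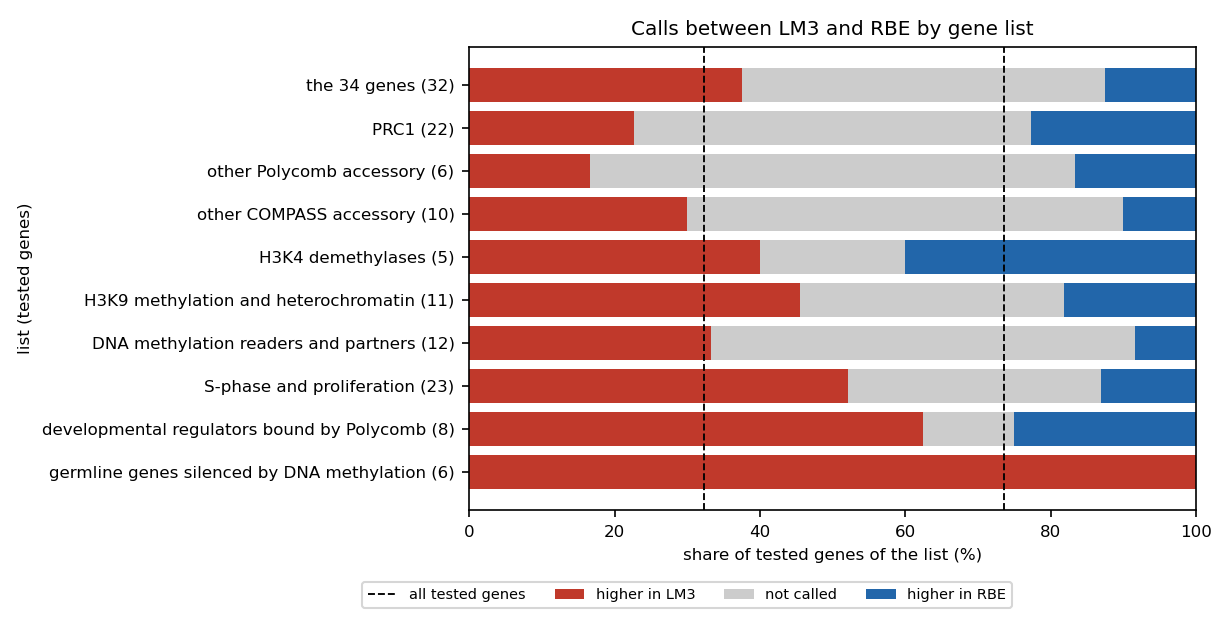
Share of the tested genes of each list that limma called between the lines, red for higher in LM3, blue for higher in RBE and grey for not called, with the number tested in brackets; dashed lines mark the shares over all tested genes (32.3% higher in LM3 from the left, 26.4% higher in RBE from the right). The top bar holds the 34 genes (37.5% and 12.5%). Genes of the lowest bar reached 1 FPKM in LM3 alone, so its full red share was set by the filter. In the bar above it, the filter obliged all called genes except GATA6 to differ.

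Between the transfections, 3 genes of these lists differed at least 2-fold in FPKM + 1 in a single line, and these 3 were chosen after their values were seen. ZBTB4, a reader of methylated DNA, was at 4.48 (si-FENDRR) against 17.9 FPKM (si-NC) in LM3, and in RBE at 14.8 (si-FENDRR) against 13.7 FPKM (si-NC). In RBE, ASXL2 was at 3.61 (si-FENDRR) against 1.15 FPKM (si-NC), and ZBTB38 was at 8.22 (si-FENDRR) against 2.75 FPKM (si-NC). In LM3, ASXL2 was at 3.61 (si-FENDRR) against 3.57 FPKM (si-NC), and ZBTB38 was at 18.1 (si-FENDRR) against 15.1 FPKM (si-NC). By the mean difference over both lines, the highest and lowest genes of each list were PHC3 and YAF2 (0.28 each) against PCGF2 (-0.25) and BCORL1 (-0.19) in PRC1, ASXL2 (0.56) and LCOR (0.09) against LCORL (-0.17) and EPOP (-0.09) among the other Polycomb genes, and CXXC1 (0.41) and HCFC2 (0.28) against PAXIP1 (-0.02) and PSIP1 (-0.01) among the COMPASS subunits. Among the lysine 4 demethylases KDM1B (0.34) stood highest and KDM5C (-0.18) and KDM5B (-0.15) lowest. Among lysine 9 and heterochromatin genes ATF7IP (0.45) and SUV39H1 (0.16) stood highest and MPHOSPH8 (-0.63) and EHMT2 (-0.25) lowest. Among the readers ZBTB38 (0.77) and MBD4 (0.21) stood highest and ZBTB4 (-0.84) and DMAP1 (-0.53) lowest. Some of these means join opposite directions in the lines. KDM5B differed by -0.64 in LM3 and 0.35 in RBE, and LCOR by 0.31 in LM3 and -0.13 in RBE. EHMT2 differed by -0.57 in LM3 and 0.07 in RBE, and BCORL1 by -0.42 in LM3 and 0.05 in RBE. The mean of CXXC1 came from LM3 (0.79), with 0.02 in RBE. MPHOSPH8, a reader of lysine 9 methylation, stood at 2.74 (si-FENDRR) against 4.6 FPKM (si-NC) in LM3, and in RBE at 3.77 (si-FENDRR) against 6.59 FPKM (si-NC), and was not called. Of the S-phase genes, 12 of 23 stood higher after si-FENDRR in LM3 and in RBE and 1 stood lower in both, beside 26.9% and 21.8% of all tested genes, with medians of 0.08 in LM3 and 0.14 in RBE. CCNE2 (0.42) and PCNA (0.34) stood highest, and PCNA was at 101 (si-FENDRR) against 80.4 FPKM (si-NC) in LM3, and in RBE at 106 (si-FENDRR) against 82.4 FPKM (si-NC). The part of this shift in the difference of HELLS was not tested.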

How the data were processed

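Messenger RNA libraries were made from total RNA taken with Trizol, per the labels' protocols, and reads were checked with FastQC and aligned to hg38 with HISAT2, per the submitters' processing notes. The authors deposited FPKM per gene; the counting program, annotation and strand setting were not given in the sources used here. Of low single-exon values, 17.2% to 22.5% lay within 0.05 of a whole read step (10.0% if even), so reads were not recovered. The 4 single-library files are identical to the matrix columns. Genes with at least 1 FPKM in any library were tested on log2(FPKM + 1) with limma 3.58.1 in R 4.3.3 (trended prior, terms for line and transfection, Benjamini-Hochberg). The fit was first run on simulated data with variances drawn from the fitted prior. That run cannot show how the test fares on these unreplicated libraries. Nothing states separate replicate cultures, so p-values weigh a difference against the spread between these libraries, moderated over the tested genes.

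The 34 genes, the lists and the naming rule were chosen with earlier results of these data known. The rule names all 34 genes, with full statistics for the 10 called genes of greatest size per direction, and for each list the 2 highest and 2 lowest genes by line and by transfection; for space, not all are given with values. Groups were taken from the labels. The result of 1 marker gene is not reported here. Shared exons and copies (at least 95% identity over 150 bases, blastn 2.17.0) come from GENCODE 29, where 33 of 34 genes have the file's start and end. Alternatives covered pseudocount, filter, scaling, blocking terms, prior trend, fold limit and omission of each library.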

Additional observations from a re-analysis of the deposited data

Results flagged for a closer look

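UHRF1 differed in opposite directions between the transfections in the cell lines. The si-FENDRR minus si-NC difference on the log2(FPKM + 1) scale was -0.27 in LM3, at 9.85 (si-FENDRR) against 12.1 FPKM (si-NC), and 0.15 in RBE, at 3.9 (si-FENDRR) against 3.43 FPKM (si-NC). It was picked out because FPKM + 1 moved at least 1.1-fold in each line. The pseudogene AC112777.1, near-identical to 33.0% of the transcript, was at 2.998 (si-FENDRR) against 1.93 FPKM (si-NC) in LM3, and in RBE at 0.757 (si-FENDRR) against 0.431 FPKM (si-NC). With 1 library per line and transfection the difference between the lines was not tested.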

How the results depend on the processing

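The 16 calls between the lines ranged from 15 to 20 under the alternatives, and no call changed direction. TET3 was lost with a pseudocount of 5, without a filter and with equal totals. With a pseudocount of 5, PHF19 (-1.06) and ASH2L (-0.98) exceeded DNMT3B (0.94) in size. DNMT3B was not tested where every library had to reach 1 FPKM. HELLS was gained with equal totals and EED with median-of-ratios scaling. With no replicate block (transfection term left out) 20 were called, the gained ones being DPY30, EED, SETD1A and SUZ12; the libraries carry no replicate numbers. Over all tested genes, 9348 line calls became 6209 with at least 1 FPKM in every library. Genes at least 2-fold apart between the transfections numbered 339 in LM3 and 279 in RBE. They numbered 940 and 818 with a pseudocount of 0.1, 100 and 83 with a pseudocount of 5, and 177 and 156 with 1 FPKM in every library. At 1.5-fold they numbered 1269 and 999, and 1 of the 34 genes in LM3 passed. With no term for cell line, 0 genes were called between the transfections and 32 had an unadjusted p under 0.05. Over the settings with a test, line differences of the 32 genes kept direction and side of the threshold in 246 cases; the 6 gains and 3 losses are those named above. With 1 library left out there is no test; KMT2C, not called, was then 0.25 without either si-NC library and -0.34 without either si-FENDRR library, and none of the other 31 genes changed sign. Depth limits remain unknown.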

Other observations

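Developmental regulators that Polycomb is known to hold silent were described from a list of 19 genes, of which 8 were tested and 7 were listed at 0 FPKM in all 4 libraries (WT1, SOX1, SOX17, TBX5, FOXF1, FOXC2 and HAND1). FOXF1 is the gene next to FENDRR. CDKN2A and CDKN2B, the cell cycle inhibitors of a locus that is a textbook Polycomb target, were detected in the LM3 libraries alone. Neither the DNA of this locus nor Polycomb binding was measured, so why they were absent from RBE was not tested. CDKN2A was at 72.1 (si-FENDRR) and 29.9 FPKM (si-NC) in LM3 and was listed at 0 FPKM in both RBE libraries; CDKN2B was at 5.96 (si-FENDRR) and 5.56 FPKM (si-NC) in LM3 and was listed at 0 FPKM in both RBE libraries. PAX3 (4.19 (si-FENDRR) and 3.76 FPKM (si-NC) in LM3) was likewise listed at 0 FPKM in RBE, and PAX2 (5.64 (si-FENDRR) and 7.15 FPKM (si-NC) in RBE) and IRX3 (2.05 (si-FENDRR) and 1.22 FPKM (si-NC) in RBE) were listed at 0 FPKM in LM3. Of the 8 tested genes, limma called 5 higher in LM3 and 2 in RBE, beside 32.3% and 26.4% of all tested genes. All of these called genes except GATA6 reached 1 FPKM in a single line, so the filter obliged them to differ. By the mean difference between the transfections CDKN2A (0.62) and IRX3 (0.23) stood highest and GATA4 (-0.44) and PAX2 (-0.15) lowest. CDKN2A, IRX3 and PAX2 were each listed at 0 FPKM in 1 line, so their means rest on the other line. There the difference was 1.24 for CDKN2A (LM3), which is past 2-fold, 0.46 for IRX3 (RBE) and -0.3 for PAX2 (RBE). Each compares 1 library with 1 library and was not tested.

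Germline genes that DNA methylation is known to silence in body cells were described from a list of 19, of which 6 were tested, all through their LM3 libraries, so their 6 calls toward LM3 were set by the filter. SSX1 was at 68.5 (si-FENDRR) and 63.7 FPKM (si-NC) in LM3 and was listed at 0 FPKM in both RBE libraries. SPANXA1 was at 176 (si-FENDRR) and 166 FPKM (si-NC) in LM3, against 0 (si-FENDRR) and 0.248 FPKM (si-NC) in RBE, and MAGEA3 at 12.6 (si-FENDRR) and 14.8 FPKM (si-NC) in LM3 was listed at 0 FPKM in RBE. DAZL, TEX101, MAGEA1, MAGEA4, MAGEA10, MAGEA12 and TDRD1 were listed at 0 FPKM in all 4 libraries. Genes of the SSX, SPANX and MAGEA families have close copies among which reads could be split. By the mean difference between the transfections over both lines, MAGEA6 (0.20) stood highest and SPANXA1 (-0.12) lowest; within LM3 it was 0.40 for MAGEA6, and within RBE it was -0.32 for SPANXA1.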
